A study of Mus musculus with 4 samples.

Results

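The 53 genes described here encode the machinery that copies DNA in S phase, from the marking of origins to the supply of deoxynucleotides. They were listed by name and divided by function into 5 steps. No measured value enters that rule, but the list was drawn up with earlier results of these data known. Origin licensing held 15 genes, origin firing 8, the polymerases 9, the clamp and other fork proteins 16, and nucleotide supply 5. Each of the 53 symbols matched 1 gene among the 34547 genes of the deposited tables, and all 53 were among the 16607 genes with enough counts to be tested. RNA had been taken by laser microdissection from cryosections of forelimb cartilage of C57BL/6 mouse embryos. The 2 PC libraries hold proliferating chondrocytes of E14.5 embryos (replicates 1 and 2), and the 2 HC libraries hold hypertrophic chondrocytes of E15.5 embryos (replicates 3 and 4). No mutation, transgene or treatment is given for either group. Embryonic age and chondrocyte zone therefore cannot be told apart in any value below. The sources used here do not say how the zones were recognised in the sections, or whether embryos were pooled or the replicates came from separate embryos, so the p-values measure the spread between these libraries, which may be technical. With 2 libraries against 2, an exact permutation test of a single value cannot go below p = 0.333 (two-sided), so single values were given no permutation test and the calls come from the model fitted across all tested genes.

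A replication origin is first licensed. The origin recognition complex (ORC) binds the DNA, and with Cdc6 and Cdt1 it loads the MCM2-7 helicase in an inactive ring. In S phase the kinase Cdc7 with its activator Dbf4, together with Mcm10, Cdc45 and the GINS complex, turns that ring into a moving helicase, and the polymerases, their sliding clamp and the clamp loader then copy both strands. In the growth plate, round and columnar chondrocytes divide and lengthen the cartilage, and they leave the cell cycle before they enlarge into hypertrophic chondrocytes. In bulk RNA of this kind, fewer cells in S phase and less of a transcript in each cell cannot be told apart.

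The libraries held 15246529 to 36644496 estimated counts, with HC replicates 3 and 4 the shallowest. HC replicate 3 stood apart from the rest, with the lowest total, 20.2% of its counts on mitochondrial genes (8.81% to 14.1% in the others) and 8.75% on the single gene Gm10800 (1.75% to 2.67% in the others). The labelled cell types were checked against marker genes. The 8 chondrocyte markers summed to 61299 and 50845 CPM (counts scaled to library size, with TMM factors) in PC and to 41875 and 46947 CPM in HC, and none of the 8 passed the test. Both HC libraries lay below both PC libraries for 5 of the 8 and above them for 2, against 33.3% and 27.7% of tested genes. Sox9 was at 42.8% and 19.0% of the PC mean in HC replicates 3 and 4, while Comp was at 219% and 252%. The 8 hypertrophic markers summed to 265 and 1620 CPM in PC and to 33025 and 40061 CPM in HC, and 4 of them (Ihh, Alpl, Pth1r and Phex) rose. Markers of other cell types were also higher in HC. The 8 perichondrium and osteoblast genes summed to 883 and 1337 CPM in PC and to 13341 and 4636 CPM in HC, with 2 called. The 7 osteoclast genes listed summed to 16.7 and 68.9 CPM in PC and to 1073 and 690 CPM in HC, with 2 of the 6 tested called. The sums for red blood cells (8 genes tested, 4 called), endothelium (7, 2 called), macrophages (7, 2 called), muscle (6, 1 called) and epidermis (5, 1 called) lay between 5.67 and 44.1 CPM in PC and between 27.3 and 338 CPM in HC. All these sums include the listed genes that were not tested. Of all tested genes, 2.75% were called higher in HC. No listed marker, tested or not, was at 0 in all 4 libraries, while Myod1, C1qa, Hba-x and Krt5 were at 0 in both HC libraries. The part of these cell types in the replication results was not tested.

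Of the 53 replication genes, 9 (17%) fell in HC and none rose. They were Cdc6, Cdt1, Mcm5, Pold1, Pole, Tipin, Dtl, Cdca7 and Dut, by edgeR's quasi-likelihood test with a Benjamini-Hochberg adjusted p under 0.05, against 1.96% of all tested genes called lower and 2.75% called higher. Their folds ranged from a log2 fold change of −2.22 to −4.47. The lowest edgeR adjusted p of the whole fit was 0.0359, so every call in it lay between that value and 0.05. Cdt1, Pold1 and Dut share the value, so it does not rank them. The other 44 did not pass, although 29 members were lower at an unadjusted p under 0.05, as were 14.4% of all tested genes. Both HC libraries lay below both PC libraries for 46 of the 53 members, against 33.3% of tested genes. Orc4 was the 1 member with both HC libraries above both PC libraries, against 27.7% of tested genes, and the 6 members with overlapping groups were Orc2, Orc5, Gins1, Gins4, Rfc2 and Rfc4. The median log2 fold change of the members was −1.31, beside −0.04 over all tested genes. Summed over the 53 genes, the level was 2382 and 2418 CPM in PC, 1260 CPM in HC replicate 3 and 771 CPM in HC replicate 4, or 52.5% and 32.1% of the PC mean.

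**Figure D1:**
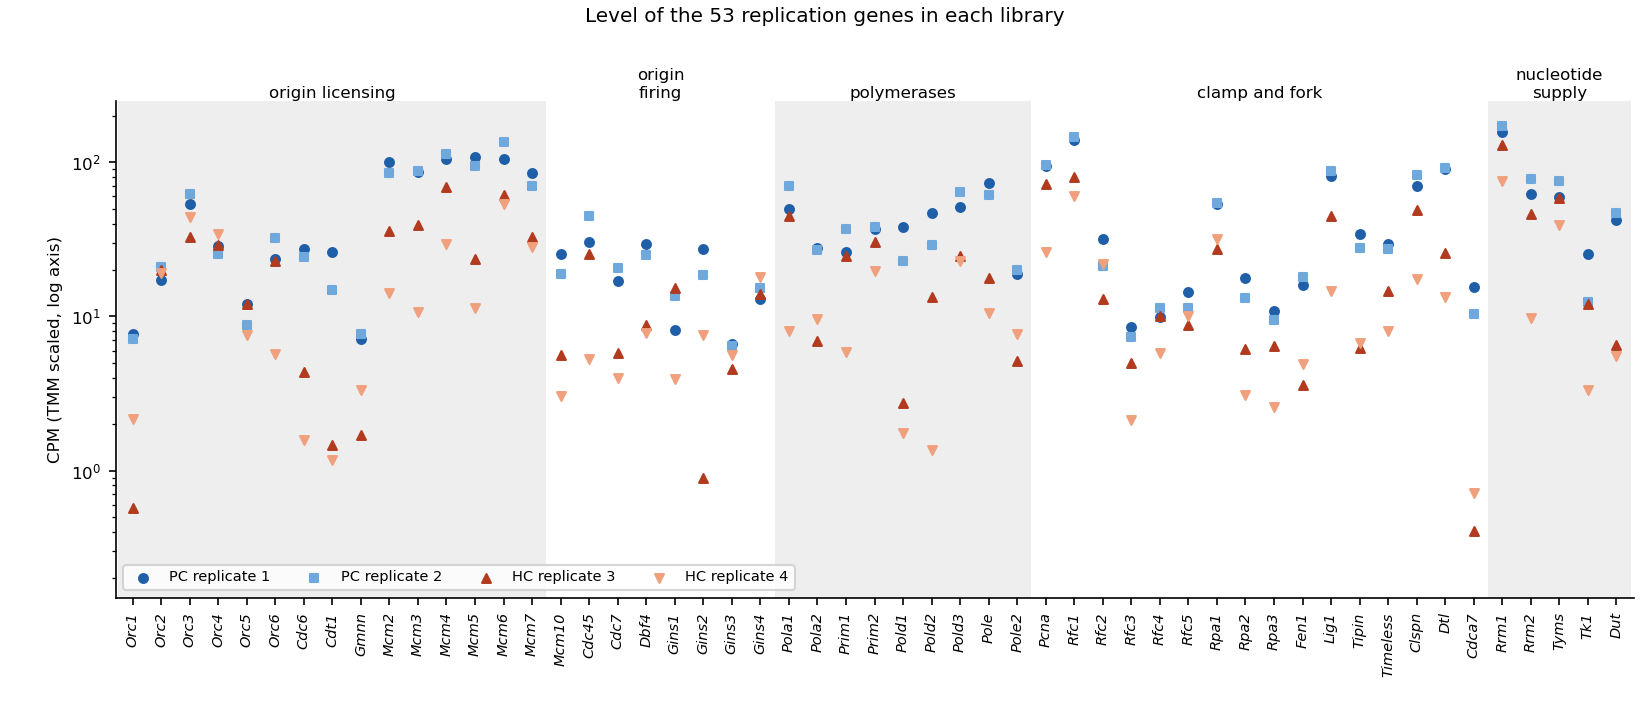
Level of each of the 53 replication genes (CPM, log axis) in the 2 PC and 2 HC libraries, with genes ordered by step and 1 point per library. Both HC points lie below both PC points for 46 genes, and the widest gaps are those of Cdca7, Cdt1 and Pold1.

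The count of genes called depended on single libraries. Without PC replicate 1 it was 6, without PC replicate 2 it was 14, without HC replicate 3 it was 40 and without HC replicate 4 it was 26, while the percentage of all tested genes called lower was 1.41%, 2.98%, 15.2% and 20.7%. In these fits a group of 1 library is assumed to vary like the other group. It stayed at 9 with RLE size factors (1.82% of all tested genes) and without mitochondrial genes and Gm10800 (1.95%), and was 20 without a count filter (4%), 13 with a stricter one (3.24%) and 6 with an offset for effective length (1.01%). No call was made with library size alone as the scaling, with protein-coding transcripts alone, or with limma on TPM (a level scaled to transcript length and library size), and DESeq2 called 27 members lower, against 8.7% of all tested genes. The 9 genes had a negative fold in all 135 combinations of gene and alternative, and kept their call in 84 of them.

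**Figure D2:**
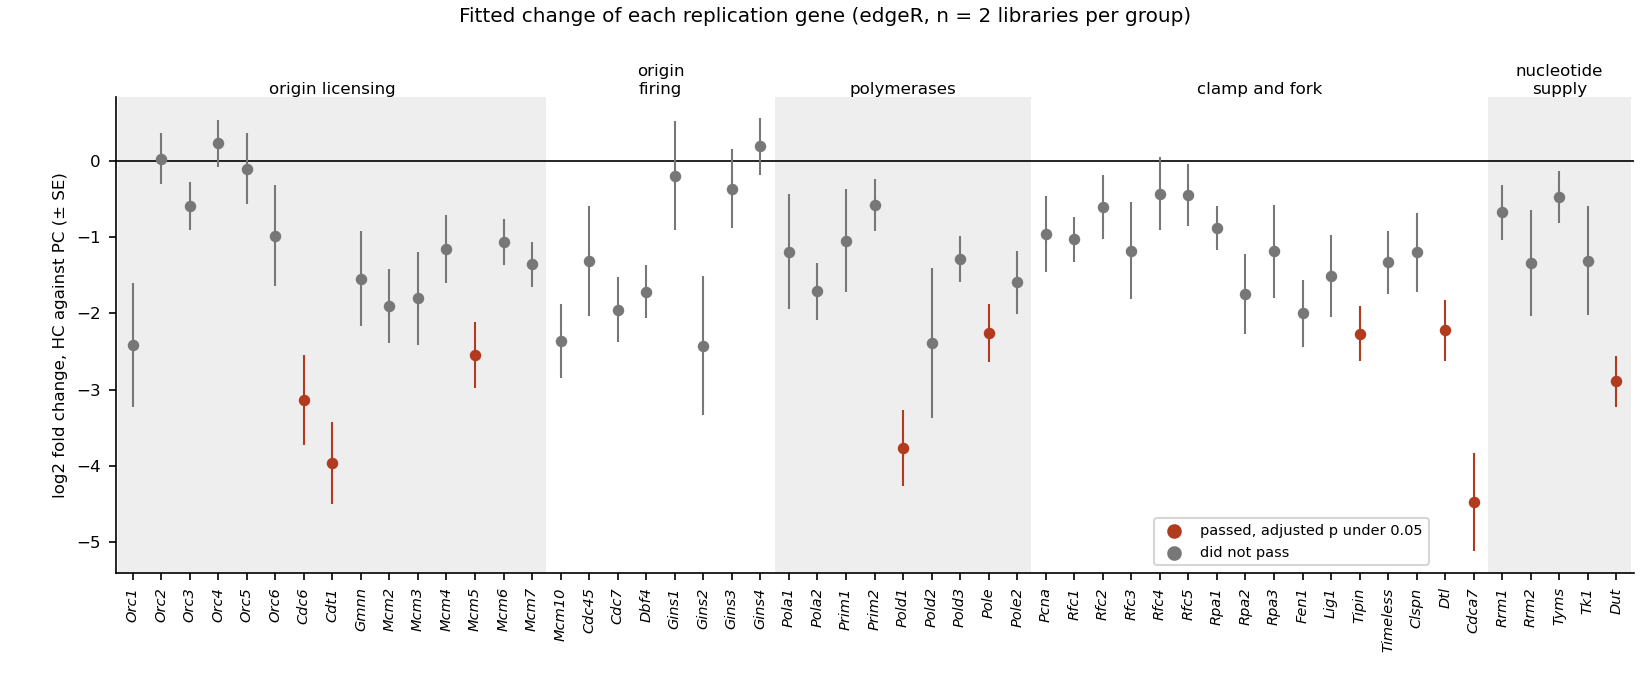
Fitted log2 fold change of HC against PC for each of the 53 genes, with bars of 1 SE (edgeR, n = 2 libraries per group). The 9 genes that passed the test are coloured and lie between −2.22 and −4.47, while Orc2, Orc4 and Gins4 are fitted above 0.

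Many S phase genes are known to carry E2F sites near their start, so the promoter letters of the members were read from RefSeq (GRCm38.p6). Windows from 250 bases before to 50 bases after the start were held for 44 of the 53 members. The 4 letter strings TTTGGCGC, TTTCGCGC, TTTCCCGC and TTTGCCGC were searched on both strands, where matches may overlap each other. At least 1 was found in 18 of 44 members (40.9%), against 704 of 27025 genes (2.6%) with windows of the same length. Of the 7 matched genes that fell, 6 held a match and Dut did not, and of the 37 other matched members 12 held one. The median log2 fold change was −1.55 for the 18 members with a match and −1.25 for the others. A match is a description of letters and not of a bound site.

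The sequences below show the match in capitals for the 6 genes that fell and for Orc3 and Gins3, which were chosen after their values were seen as members that hold the same letters and had small fitted folds. Coordinates are GRCm38.p6 and each sequence is written 5′ to 3′ on the strand of its gene. Where the match lies within an annotated transcript, only 30 bases are given. Cdc6 lies at chr11:98908002-98908031 (plus strand), Cdt1 at chr8:122568035-122568064 (plus), Mcm5 at chr8:75109302-75109421 (plus) and Pold1 at chr7:44548766-44548795 (minus). Dtl lies at chr1:191575545-191575664 (minus), Cdca7 at chr2:72476039-72476158 (plus), Orc3 at chr4:34614964-34615083 (minus) and Gins3 at chr8:95633507-95633536 (plus).
Cdc6: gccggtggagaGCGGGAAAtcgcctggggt
Cdt1: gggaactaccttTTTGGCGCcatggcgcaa
Mcm5: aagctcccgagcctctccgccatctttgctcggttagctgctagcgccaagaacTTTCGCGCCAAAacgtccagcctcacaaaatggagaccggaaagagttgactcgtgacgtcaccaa
Pold1: cacggcggcgtatcttgtgGCGGGAAAagc
Dtl: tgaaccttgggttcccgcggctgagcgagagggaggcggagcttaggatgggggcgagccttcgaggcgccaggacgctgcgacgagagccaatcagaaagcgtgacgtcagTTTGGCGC
Cdca7: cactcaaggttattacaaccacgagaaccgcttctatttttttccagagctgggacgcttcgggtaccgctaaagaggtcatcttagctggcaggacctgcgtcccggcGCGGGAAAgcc
Orc3: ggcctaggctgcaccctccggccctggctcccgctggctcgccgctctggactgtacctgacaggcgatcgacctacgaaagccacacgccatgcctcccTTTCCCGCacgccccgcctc
Gins3: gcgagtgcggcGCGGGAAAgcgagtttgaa
The first base of the match lay at −8 from the start in Dtl, −41 in Orc3 and Gins3, −71 in Cdca7 and −138 in Cdc6, and at positions 33 and 40 after it in Cdt1 and Pold1. Mcm5 held 2 overlapping matches, at −153 and −149. These distances are from the RefSeq start of the window, which can differ from the start of the gene coordinates given below. The last 40 bases of the window were found in a GENCODE transcript of the same gene for 46 of 53 member windows. Mcm5 was not among them, as its window ended at 75109558, before the gene start at 75109569.

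A pair of other motifs known from cell cycle promoters was searched in the same windows. The CCAAT box (CCAAT, bound by NF-Y) was found in 25 of 44 members (56.8%), against 41.1% of genes, in 2 of the 7 matched genes that fell and in 23 of the 37 others. The CHR motif (TTTGAA), best known from genes of mitosis, was found in 7 of 44 members (15.9%), against 20.2% of genes, and in 0 of the 7 that fell. The median log2 fold change was −1.19 for members with a CCAAT box and −1.59 for those without. For the CHR motif it was −1.90 with and −1.28 without. A lower median was thus not particular to members with E2F letters, and no split by motif was tested.

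Of the 15 licensing genes, 3 fell (Cdc6, Cdt1 and Mcm5), none rose and 12 did not pass, with a median log2 fold change of −1.36. Their summed level in HC replicates 3 and 4 was 48.7% and 33.7% of the PC mean. The fitted log2 changes within the step ran from −3.96 for the loader Cdt1 to 0.23 for the ORC subunit Orc4.

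Cdc6, the ATPase that recruits the helicase to ORC (chromosome 11, 98907801 to 98923940), had 27.5 and 24.2 CPM in PC, against 4.38 and 1.58 CPM in HC. The fitted change on the log2 scale was −3.14 ± 0.59 (SE, with n = 2 libraries in each group, edgeR adjusted p = 0.0479). With single libraries left out it ranged from −4.06 without HC replicate 3 to −2.60 without HC replicate 4. With an offset for effective length it was −2.28 and did not pass (edgeR adjusted p = 0.212). Cdt1, the second loader, whose destruction in S phase prevents a second round of licensing (chromosome 8, 122568015 to 122573554), had 26.2 and 14.7 CPM in PC, against 1.46 and 1.17 CPM in HC. Both HC values were below both PC values, a log2 change of −3.96 ± 0.54 (edgeR adjusted p = 0.0359). Without PC replicate 1, Cdt1 did not pass (adjusted p = 0.0559). Cdt1 overlaps Gm20388 on the same strand, so part of its counts is uncertain. Gmnn, which encodes the Cdt1 inhibitor geminin, had 7.15 and 7.66 CPM in PC, against 1.70 and 3.33 CPM in HC and did not pass (log2 fold change −1.54 ± 0.63, edgeR adjusted p = 0.184).

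Mcm5 (chromosome 8, 75109569 to 75128439) was the 1 helicase subunit that passed. It had 108 and 93.9 CPM in PC, against 23.5 and 11.3 CPM in HC, a log2 change of −2.54 ± 0.43 (edgeR adjusted p = 0.0406). Mcm7 had 85 and 69.8 CPM in PC, against 32.5 and 28 CPM in HC, did not overlap between groups, and missed the threshold at −1.36 ± 0.30 (adjusted p = 0.0605). The fitted log2 fold changes of Mcm2, Mcm3, Mcm4 and Mcm6 were −1.90, −1.80, −1.15 and −1.06, with both HC libraries below both PC libraries in each.

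ORC, which stays on chromatin outside S phase and has roles beyond replication, was uneven. Orc1, the subunit whose level rises and falls with the cell cycle, had 7.70 and 7.14 CPM in PC, against 0.568 and 2.16 CPM in HC (log2 fold change −2.41 ± 0.82, edgeR adjusted p = 0.130). Orc3 (chromosome 4) had 53.8 and 62.1 CPM in PC, against 32.5 and 44.3 CPM in HC (−0.59 ± 0.31, adjusted p = 0.287). Orc2 (chromosome 1) had 17.3 and 20.9 CPM in PC, against 19.9 and 19.0 CPM in HC, so the HC values lay within the PC range (0.03 ± 0.33, adjusted p = 0.967). Orc4 had 28.5 and 25.5 CPM in PC, against 28.9 and 34.4 CPM in HC (0.23 ± 0.31, adjusted p = 0.681), and its fold was −0.02 under library size alone. Neither Orc2 nor Orc4 passed a test in either direction.

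None of the 8 firing genes passed, with a median log2 fold change of −1.51 and a summed level of 50.01% and 34.4% of the PC mean in HC replicates 3 and 4. Of the 8, 4 had an unadjusted p under 0.05, and both HC libraries were below both PC libraries for 6. Mcm10, which binds the loaded helicase at the start of unwinding, had 25.5 and 18.7 CPM in PC, against 5.60 and 3.06 CPM in HC (−2.36 ± 0.48, edgeR adjusted p = 0.0538). Dbf4, the activating subunit of the firing kinase, had 29.6 and 25.1 CPM in PC, against 8.85 and 7.83 CPM in HC (−1.71 ± 0.35, adjusted p = 0.0538). Its kinase Cdc7 had 17 and 20.5 CPM in PC, against 5.76 and 3.96 CPM in HC (−1.95 ± 0.43, adjusted p = 0.0614). In all 3 the groups did not overlap, and the adjusted p lay just outside the threshold.

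The helicase partners were less even. Cdc45 had 30.6 and 44.7 CPM in PC, but 25.2 CPM in HC replicate 3 and 5.27 CPM in HC replicate 4. Within GINS, the 4-subunit ring that joins Cdc45 and the helicase, Gins2 had 27.5 and 18.6 CPM in PC, against 0.893 and 7.52 CPM in HC (−2.42 ± 0.91, edgeR adjusted p = 0.160). Its coding transcript Gins2-201 held 392 estimated counts in PC replicate 1, and 0 in PC replicate 2 and in both HC libraries. The retained-intron transcript Gins2-203 held 490 and 639 in PC, and 11.2 and 167 in HC. Gins2 also overlaps Gse1 and Gm20388 on the opposite strand, and the strand setting is not given. Gins4 had 12.9 and 15.3 CPM in PC, against 14.0 and 18.1 CPM in HC, with overlapping groups (0.19 ± 0.37, adjusted p = 0.787), and its fold turned negative under library size alone (−0.05). Gins1 and Gins3 had fitted log2 fold changes of −0.20 ± 0.71 and −0.36 ± 0.52.

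Of the 9 polymerase genes, 2 fell (Pold1 and Pole), none rose and 7 did not pass. Their median log2 fold change was −1.59, and both HC libraries lay below both PC libraries for all 9. Summed, they stood at 46.2% and 23.8% of the PC mean in HC replicates 3 and 4.

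Pold1, the catalytic subunit of polymerase delta, which copies the lagging strand (chromosome 7, 44532746 to 44548849), had 37.9 and 22.9 CPM in PC, against 2.76 and 1.76 CPM in HC. Its fitted log2 change was −3.76 ± 0.50 (edgeR adjusted p = 0.0359), and it did not pass with an offset for effective length (−2.54, adjusted p = 0.0673). Over protein-coding transcripts alone its fitted change was −6.04, which did not pass either. Its accessory subunit Pold2 had 46.7 and 28.9 CPM in PC, 13.3 CPM in HC replicate 3 and 1.35 CPM in HC replicate 4, and did not pass (−2.39 ± 0.98, adjusted p = 0.189). Pold3 had 51.4 and 64.0 CPM in PC, against 24.6 and 22.8 CPM in HC (−1.28 ± 0.30, adjusted p = 0.0704). Of the 3 subunits, Pold2 differed most between the HC replicates and Pold3 least.

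Pole, the catalytic subunit of the leading-strand polymerase epsilon (chromosome 5, 110286306 to 110337474), had 73.1 and 61.1 CPM in PC, against 17.6 and 10.5 CPM in HC. It fell by 2.26 ± 0.38 on the log2 scale (edgeR adjusted p = 0.0399). Pold1 overlaps the pseudogene Gm44833 on the opposite strand and Pole overlaps the pseudogene Gm15791 on its own strand, and 20 of the 53 members overlap another gene. Polymerase alpha with primase lays the primers. Of its subunits, Pola2 had 27.6 and 26.8 CPM in PC, against 6.90 and 9.68 CPM in HC (−1.71 ± 0.37, adjusted p = 0.0595), while Prim2 had 36.6 and 37.8 CPM in PC, against 30.2 and 19.8 CPM in HC (−0.57 ± 0.34).

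Of the 16 clamp and fork genes, 3 fell (Tipin, Dtl and Cdca7), none rose and 13 did not pass, with a median log2 fold change of −1.19. Their sum in HC replicates 3 and 4 was 52.0% and 32.0% of the PC mean, and both HC libraries were below both PC libraries for 14 of the 16.

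Tipin, which with Timeless steadies a paused fork (chromosome 9, 64281581 to 64305424), had 34.4 and 27.9 CPM in PC, against 6.25 and 6.71 CPM in HC. Its fitted log2 change was −2.26 ± 0.36 (edgeR adjusted p = 0.0375), but the call was lost without PC replicate 1 (adjusted p = 0.113). Its partner Timeless was fitted at −1.33 ± 0.41 and did not pass (adjusted p = 0.112). Dtl, the substrate receptor of the ubiquitin ligase that destroys Cdt1 at the clamp (chromosome 1, 191537356 to 191575544), had 89.9 and 92.2 CPM in PC, against 25.7 and 13.4 CPM in HC. Its fitted log2 change was −2.22 ± 0.40 (edgeR adjusted p = 0.0440). Cdca7, which guides the remodeller Hells to newly copied DNA (chromosome 2, 72476159 to 72486893), had 15.4 and 10.4 CPM in PC, against 0.406 and 0.720 CPM in HC. In this fit its log2 change was the lowest of the 53, −4.47 ± 0.65 (edgeR adjusted p = 0.0361). It rested on 531 and 400 estimated counts in PC against 5 and 16 in HC, and it did not pass without PC replicate 1 (adjusted p = 0.0972).

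The clamp itself did not pass. Pcna had 94.3 and 95.9 CPM in PC, 71.9 CPM in HC replicate 3 and 26.3 CPM in HC replicate 4 (−0.95 ± 0.50, edgeR adjusted p = 0.284). Annotated pseudogenes of Pcna and of Tyms exist, so their counts could be shared between copies. Rfc1, the large subunit of the clamp loader and one of the most abundant members, had 140 and 146 CPM in PC, against 79.9 and 60.5 CPM in HC (−1.03 ± 0.30, adjusted p = 0.0989). Rfc4 had 9.85 and 11.3 CPM in PC, against 9.98 and 5.76 CPM in HC, with overlapping groups (−0.43 ± 0.48). Fen1, the nuclease that trims the flaps between lagging-strand fragments, had 16.0 and 18.1 CPM in PC, against 3.57 and 4.91 CPM in HC and missed the threshold (−2.0 ± 0.44, adjusted p = 0.0597).

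Of the 5 nucleotide supply genes, 1 fell (Dut) and 4 did not pass, with a median log2 fold change of −1.31. Dut, the dUTPase that keeps uracil out of DNA (chromosome 2, 125247190 to 125258608), had 42.5 and 46.5 CPM in PC, against 6.49 and 5.49 CPM in HC. Its fitted log2 change was −2.89 ± 0.34 (edgeR adjusted p = 0.0359), the smallest standard error among the 9 genes. Rrm1, the large subunit of ribonucleotide reductase, had 156 and 171 CPM in PC, against 130 and 75.5 CPM in HC (−0.67 ± 0.36), whereas Rrm2, the small subunit that is made in S phase, had 62.6 and 78.1 CPM in PC, 45.9 CPM in HC replicate 3 and 9.77 CPM in HC replicate 4 (−1.34 ± 0.70). Tyms, thymidylate synthase, had 59.5 and 75.7 CPM in PC, against 58.6 and 38.9 CPM in HC (−0.47 ± 0.34). Tk1, thymidine kinase, had 25.3 and 12.4 CPM in PC, against 12.0 and 3.33 CPM in HC (−1.31 ± 0.71). The step stood at 69.3% of the PC mean in HC replicate 3 and 36.4% in HC replicate 4.

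Levels of subunits can be compared per length in TPM, here summed over all transcripts of a gene, coding or not. Short non-coding transcripts therefore add to these levels. Rfc1-205 (retained intron, 485 bases) held 695 and 958 estimated counts in PC, and Rpa1-205 (retained intron, 716 bases) held 847 and 1028. For Orc3, 46.7% and 43.1% of the counts in PC were on protein-coding transcripts. The part of such transcripts in the ratios below was not tested. TPM also carries no TMM factor, so a fall in TPM is not the same as a fall in CPM. With limma on log2(TPM + 1) the median log2 fold change of all tested genes was −0.39, beside −0.04 in the edgeR fit. The 53 members summed to 1991 and 1857 TPM in PC and to 719 and 631 TPM in HC replicates 3 and 4. In CPM those sums were 2382 and 2418 in PC and 1260 and 771 in HC. The 6 subunits of MCM2-7, which occur once each in the ring, summed to 326 and 317 TPM in PC and to 97.4 and 83.6 TPM in HC. The highest subunit was 1.45 and 1.68 times the lowest in PC, from 45.8 TPM (Mcm4) to 66.6 TPM (Mcm7) in replicate 1, and 3.24 and 6.61 times in HC, from 4.59 TPM (Mcm3) to 30.3 TPM (Mcm7) in replicate 4. The same ratio was 1.90 and 2.05 in PC and 5.64 and 6.31 in HC for polymerase alpha with primase. For GINS it was 2.14 and 3.54 in PC and 61.7 and 7.02 in HC, where Gins2 was at 0.205 TPM in HC replicate 3. The Gins2 level in both HC libraries held no counts on its coding transcript. ORC was uneven in PC already (14.1 and 13.3) and reached 183 in HC replicate 3, with Orc1 at 0.156 TPM, and 17.6 in HC replicate 4. For RPA, the single-strand binding complex, the ratio was 4.02 and 6.19 in PC and 6.58 and 6.55 in HC. The ratio was higher in both HC libraries than in both PC libraries for these 5 complexes and also for the clamp loader RFC (10.8 and 17.1 in PC, 34.7 and 25.6 in HC). For polymerase delta it depended on the subunits taken. Over the 3 listed members it was 4.07 and 6.54 in PC and 20.4 and 8.88 in HC, but with the small subunit Pold4, which is not a member, it was 11.8 and 18.1 in PC and 20.4 and 8.88 in HC, so that the groups overlapped. No ratio was taken for polymerase epsilon. Its subunit Pole had 21.7 and 17.1 TPM in PC and 3.09 and 3.19 TPM in HC. Pole2 had 21.7 and 20.1 TPM in PC and 3.22 and 7.38 TPM in HC. These subunits were near equal in HC replicate 3, as in PC replicate 1, so wider spread in HC did not hold there. Lower counts in HC also make a subunit's level less precise, which can raise a ratio of highest to lowest, and that part was not tested.

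**Figure D3:**
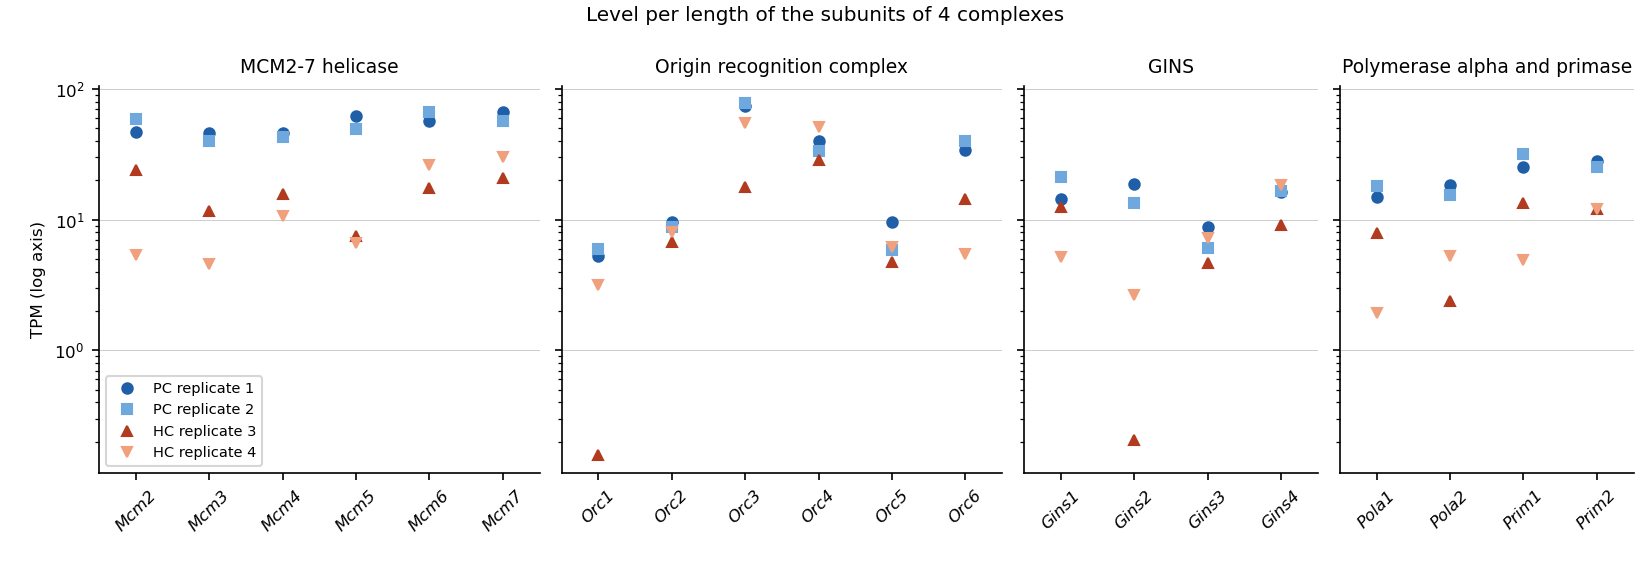
Level per length (TPM, log axis) of the subunits of 4 complexes, with 1 point per subunit and library. The MCM2-7 points lie within a ratio of 1.68 in PC and spread to a ratio of 6.61 in HC replicate 4.

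The 2 HC libraries differed from each other in these genes. HC replicate 3 was above HC replicate 4 for 38 of the 53 members (71.7%), against 46.3% of all tested genes, and the median ratio of replicate 3 to replicate 4 was 1.57 for the members and 0.951 for all tested genes. It was at least 2 times higher for 18 members (34.0%), against 18.6% of tested genes. The largest ratios were 9.86 for Pold2, 5.57 for Pola1, 4.79 for Cdc45, 4.70 for Rrm2 and 4.20 for Prim1. The reverse, replicate 4 at least 2 times above replicate 3, held for 2 members (Orc1 and Gins2), against 20.8% of tested genes. The PC replicates were within 2 times of each other for 52 of 53 members, all but Tk1, against 88.0% of tested genes. Genes that fell were among both kinds: Cdc6 and Mcm5 were at least 2 times higher in replicate 3 (ratios 2.78 and 2.08), while Tipin was near equal at 6.25 and 6.71 CPM. With 1 library on each side, this contrast has no replicate check. Markers of perichondrium and osteoblasts (13341 against 4636 CPM), muscle (225 against 52.5 CPM), endothelium (255 against 133 CPM) and macrophages (161 against 63.6 CPM) were also higher in HC replicate 3 than in replicate 4. So were osteoclast (1073 against 690 CPM) and red blood cell markers (338 against 312 CPM). The sums of hypertrophic (33025 against 40061 CPM), chondrocyte (41875 against 46947 CPM) and epidermis markers (27.3 against 32.4 CPM) were lower in replicate 3. Of the 8 hypertrophic markers 2 were higher in replicate 3, among them Ihh (3501 against 583 CPM), while Col10a1 was lower (17803 against 26922 CPM). HC replicate 3 was also the shallower of the pair and had the larger shares of mitochondrial genes (20.2% against 14.1%) and of Gm10800 (8.75% against 2.67%). The part of these differences was not tested.

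**Figure D4:**
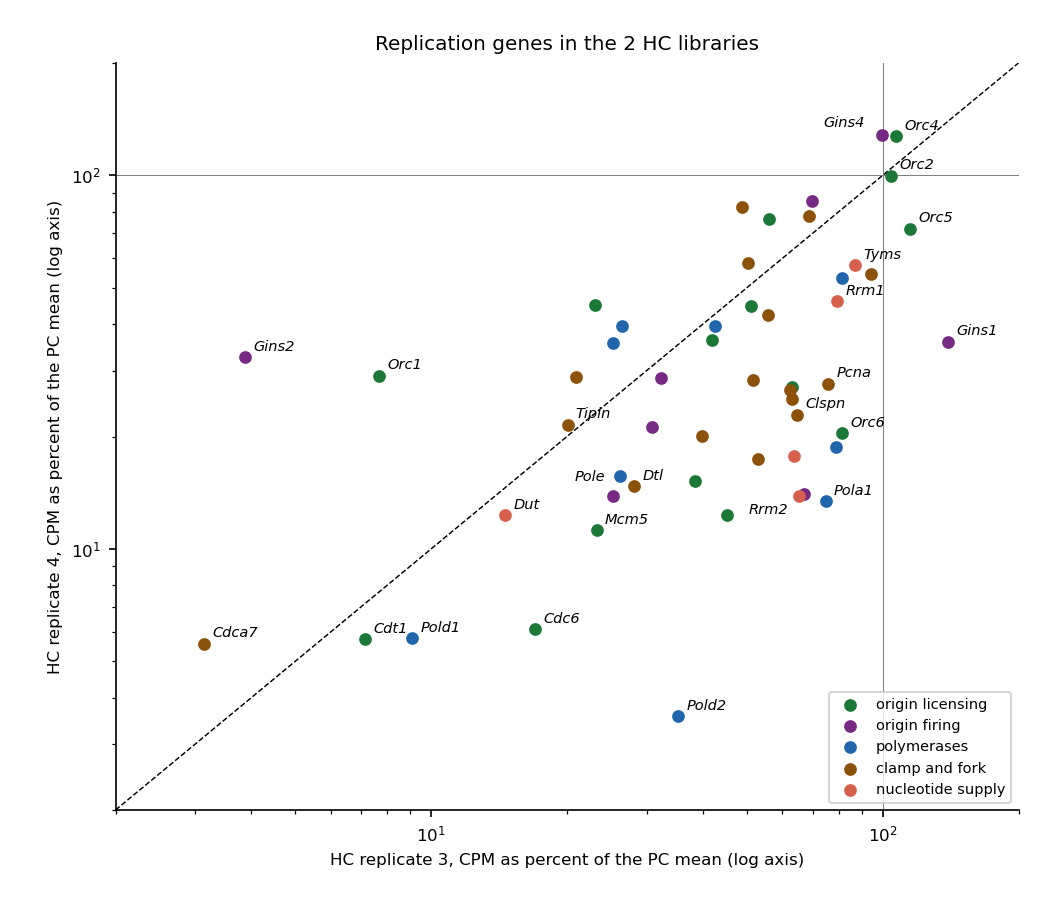
Level of each of the 53 genes in HC replicate 3 (x axis) and HC replicate 4 (y axis) as a percentage of the mean CPM of the 2 PC libraries, both on log axes, coloured by step (dashed line, equal levels; grey lines, the PC mean). For 38 genes the level was higher in replicate 3, and the medians over the genes are 51.0% and 27.7%.

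The deposited values are per transcript, so the share of a gene's counts assigned to transcripts annotated as protein-coding could be compared. For 14 of the 53 members (26.4%) that share was lower in both HC libraries than in both PC libraries, against 14.2% of 13862 coding genes tested, and for 4 (7.55%; Orc6, Dbf4, Gins1 and Rpa3) it was higher, against 15%. Over the members the median share was 89.1% and 89.0% in PC and 91.4% and 79.9% in HC, so the medians did not separate the groups. Over the 13862 coding genes tested it was 95.5% and 96.0% in PC and 100% and 97.9% in HC. The members thus had the lower median in each library, and the percentages above make no allowance for that. Pold1 had 85.3% and 71.8% in PC and 7.3% and 28.7% in HC. Its coding transcript Pold1-201 had 1104 and 626 estimated counts in PC and 0 and 11.2 in HC, while Pold1-208, annotated for nonsense-mediated decay, had 0 and 0 in PC and 31.5 and 11.4 in HC. Cdt1-201, its coding transcript, had 474 and 186 estimated counts in PC and 0 in both HC libraries, and all of Cdt1's remaining HC counts, 18 and 26, were on the retained-intron transcript Cdt1-205. For Pold3 the decay-annotated Pold3-203 had 0 in both PC libraries and 66.2 and 124 estimated counts in HC, beside 144 and 209 on the coding Pold3-201. Orc6 differed between its coding transcripts, with Orc6-201 at 543 and 983 in PC and 31.7 and 15.3 in HC, and Orc6-202 at 160 and 180 in PC and 232 and 111 in HC. These assignments carry an estimation error that the tables do not hold, and no test was run on them.

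**Figure D5:**
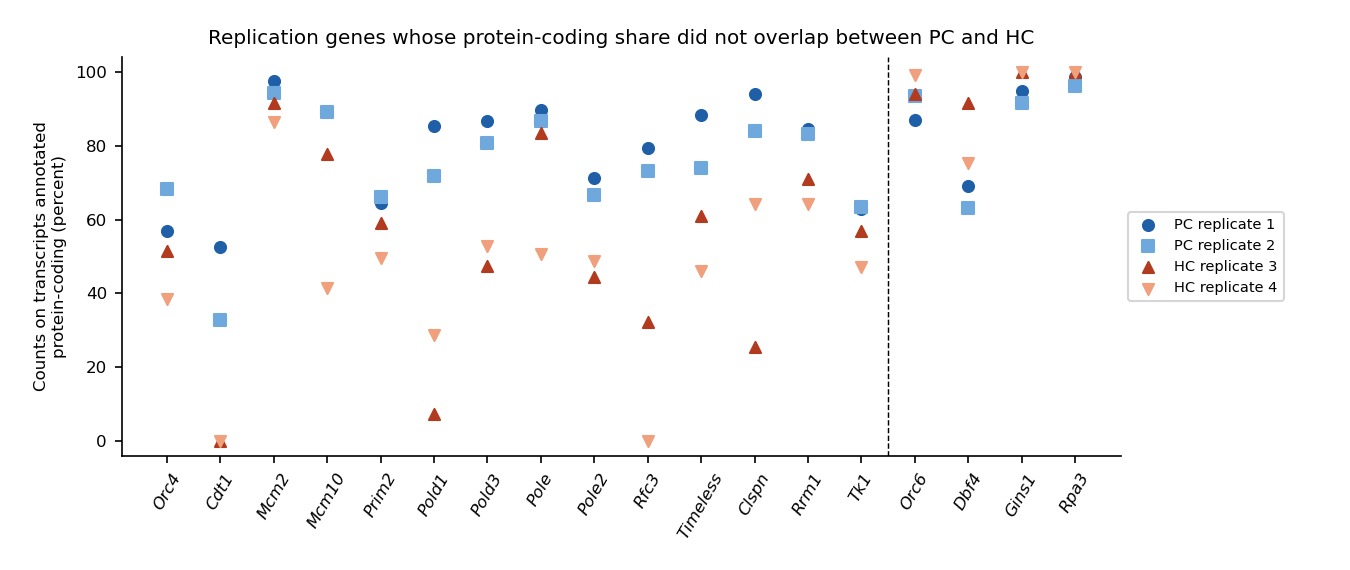
Percentage of each gene's estimated counts on transcripts annotated as protein-coding, for the 18 members whose groups did not overlap, with 1 point per library. The 14 genes left of the dashed line are lower in both HC libraries and the 4 genes right of it are higher.

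The genes listed beside the members gave the following values, in a fit that called 1.96% of all tested genes lower and 2.75% higher. Of 44 other replication genes, 5 fell, none rose and 39 did not pass, with a median log2 fold change of −1.10. They were the firing factors Ticrr (−2.16) and Topbp1 (−1.69), the clamp loader subunit Chtf18 (−3.96), the clamp-associated Pclaf (−1.81) and the maintenance DNA methyltransferase Dnmt1 (−1.99). Mcmbp (−0.20) and Mcm9 (−0.15), relatives or partners of the helicase, were fitted nearest to 0. Of 27 other nucleotide supply genes, 2 fell, Shmt2 (−2.66) and Atic (−1.89) of folate and purine synthesis, with a median of −1.04. Samhd1, the enzyme that breaks down deoxynucleotides outside S phase, had 58.6 and 77.7 CPM in PC, against 185 and 183 CPM in HC and missed the threshold on the high side (1.43 ± 0.30, edgeR adjusted p = 0.0571).

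Of 30 mitosis genes 11 fell, including Ccna2, Cdk1, Birc5 and Foxm1, and none rose, against 1.96% of all tested genes lower and 2.75% higher. Their median log2 fold change was −2.26. Their sum in HC replicates 3 and 4 was 32.8% and 11.3% of the PC mean. All 30 were higher in replicate 3 than in replicate 4, against 46.3% of all tested genes. Of 30 genes of G1 and S phase control, 3 fell and 2 rose. E2f1, which drives S phase transcription, had 43.1 and 46.0 CPM in PC, against 5.03 and 7.47 CPM in HC (−2.83 ± 0.37, edgeR adjusted p = 0.0359). Its partner Tfdp1 fell by 2.29 ± 0.31 and cyclin D1 (Ccnd1) fell by 1.71 ± 0.28 on the log2 scale. Rb1, which holds E2F proteins in check, had 8.75 and 9.37 CPM in PC, against 51.0 and 40.8 CPM in HC (2.34 ± 0.33, adjusted p = 0.0359). The cyclin-dependent kinase inhibitor Cdkn1a had 10.7 and 12.1 CPM in PC, against 63.5 and 122 CPM in HC (3.03 ± 0.42, adjusted p = 0.0359). Rbl2, a relative of Rb1, and the kinase gene Cdk6 were fitted nearest to 0 in this list (0.18 and 0.06), and both changed sign under some alternatives, Rbl2 reaching −0.25 without HC replicate 4.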

How the data were processed

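RNA of 4 laser-microdissected libraries was examined (2 PC, 2 HC). The submitters' processing notes name Trimmomatic 0.36, kallisto 0.43.1 and mm10. The deposited tables give, per transcript, estimated counts and TPM (scaled to transcript length and library size), per the file headers. For the transcript set and the strand setting, the labels and headers name nothing (not given in the sources used here). Of 109282 transcripts, 107987 matched GENCODE M21 (GRCm38), and the unmatched ones held 0.36% to 0.53% of counts. Estimated counts were summed per gene, rounded, and tested with edgeR 4.0.16 (quasi-likelihood, filterByExpr, TMM, R 4.3.3) over 16607 genes with Benjamini-Hochberg adjustment at 0.05. An SE is the unshrunk log2 fold change divided by the square root of F. Alternatives used DESeq2 1.42.0, limma 3.58.1 on log2(TPM + 1) or log2(TPM + 0.1), other scalings, filters and transcript sets, and each library left out. The edgeR steps were run on simulated data with a smaller spread between libraries (dispersion 0.05) than was fitted here (common dispersion 0.263). That run does not show how many changes would be found at the spread of these libraries. The members and gene lists were chosen with earlier results of these data known. Genes named with values are those that passed and, in each step, up to 4 with the lowest p, the 2 with the highest mean TPM, the 1 nearest to 0, and subunits of the complexes. Gmnn, Timeless, Pold4 and the transcripts described were named beyond that rule, after their values were seen. In the other lists they were drawn from those that passed, up to 4 with the lowest p and the 2 nearest to 0.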

Additional observations from a re-analysis of the deposited data

How the results depend on the processing

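No paired analysis was possible because the PC libraries carry the numbers 1 and 2 and the HC libraries 3 and 4. With DESeq2, 1629 genes were higher and 1445 lower, with 27 members lower (licensing 8, firing 4, polymerases 6, clamp and fork 8). Without a count filter the counts were 963 and 965, with 20 members (licensing 6, firing 4, polymerases 5), Orc2 at −0.0012 and Nme1 at −0.017. A stricter filter called 2 firing genes. With an effective length offset the counts were 269 and 167, with 6 members and 1 polymerase, and Gins3 (0.11), Clspn (0.052), Mcm9 (1.41), Cdk6 (−0.19) and Nme1 (−0.23) changed sign; Cdc6 (adjusted p = 0.212), Pold1 (0.0673) and Tipin (0.0560) lost their calls. The median of all genes moved from −0.04 to −0.25 without a count filter, to −0.21 without HC replicate 4 and to −0.29 with library size alone, which gave 0 calls in every count, all 9 genes having an adjusted p of 0.0515 (edgeR; 4394 genes and 38 members at an unadjusted p under 0.05), with medians of −1.83 for firing and −1.53 for clamp and fork, and Orc2 −0.23, Orc4 −0.020, Gins4 −0.046, Cdk6 −0.18, Nme1 −0.33 and Rbl2 −0.040. Protein-coding transcripts alone gave 0 calls (3761 genes and 25 members unadjusted), medians of −1.24 and −1.60, Orc4 −0.19 and Rbl2 −0.054. limma gave 0 calls on log2(TPM + 1), filtered or not, and on log2(TPM + 0.1) (4260, 4543 and 3993 genes unadjusted). Its median over all genes was −0.39 (−0.17 unfiltered) with a pseudocount of 1 and −0.59 with 0.1, and its member median −1.76 and −1.96, with firing at −2.0 and −2.22, clamp and fork at −1.64 and −1.72, Orc2 at −0.28 and −0.31, Gins4 at −0.32 and −0.34, Cdk6 at −0.77 and −0.81, Mcm9 at 0.41 and 0.37, Nme1 at −0.83 and −0.88, and Rbl2 at −0.23 and −0.24. Leaving out 1 library at a time gave 379 to 3331 genes higher and 257 to 3775 lower, and 6 to 40 members lower (licensing 2 to 10, firing 0 to 6, polymerases 2 to 8, clamp and fork 1 to 12, nucleotide supply 1 to 4). The medians ranged from −1.88 to −1.02 for members, −1.81 to −1.19 for licensing, −1.74 to −1.15 for firing, −2.45 to −1.55 for polymerases, −1.91 to −0.98 for clamp and fork and −2.53 to −0.66 for nucleotide supply. The fold crossed 0 over these 4 fits for Orc2 (−0.14 without PC replicate 1 to 0.14 without PC replicate 2), and for Orc5 (−0.51 to 0.16), Gins1 (−1.51 to 0.44), Gins4 (−0.052 to 0.33), Nme1 (−1.03 to 0.56), Ppat (−0.93 to 0.086), Cdk6 (−0.21 to 0.22), Mcm9 (−0.43 to 0.014) and Rbl2 (−0.25 to 0.45), each from without HC replicate 3 to without HC replicate 4 or the reverse, and for Mcmbp (−0.48 without PC replicate 1 to 0.057 without PC replicate 2). The order of the 5 steps by median also changed: polymerases were lowest in the reported values, firing with library size alone and with limma, and nucleotide supply without HC replicate 3. The cause of these changes was not tested. No member was called higher in any alternative. The depth limits HC values such as those of Cdca7, with 5 and 16 estimated counts.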
